A study of Homo sapiens with 26 samples.

Results

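Interferon-stimulated and RNA-sensing genes were followed as one set of 44 genes, picked by symbol from the 26485 gene rows of the 2 count tables of this study and read in all 8 groups. The study asked what the transcriptional co-repressor RUNX1T1 does in neuroblastoma, a childhood tumor of the sympathetic nervous system, and silenced it in KELLY, an established MYCN-amplified human neuroblastoma cell line. The cells had been transduced with a lentivirus switched on by doxycycline, which was an empty vector (EV) or encoded one of 2 hairpins against RUNX1T1 (sh4 and shAMB). Each of the 3 lines was given DMSO or doxycycline (Dox) for 72 h, with 3 libraries in each of the 6 culture groups. The other 8 libraries came from subcutaneous tumors of KELLY cells grown in immunodeficient NOD SCID gamma mice, which lack T, B and NK cells. Of these, 4 were labelled control (wild type, control food) and 4 were labelled RUNX1T1 KO (doxycycline food), and the labels call them PDX although the cell line is given as Kelly. All 6 culture groups thus shared the vector and all 26 libraries the cell line, and per the methods the KO tumors carried an induced hairpin, named there as the Ambion-based one, rather than a deleted gene. The xenograft comparison has no empty-vector group on doxycycline food, so that the diet and the hairpin cannot be told apart in it. No label says that the replicates of a group were separate cultures, so the p-values for the culture groups measure only the spread between these libraries, which may be technical.

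Cells detect double-stranded RNA through the cytoplasmic helicases RIG-I (DDX58), MDA5 (IFIH1) and LGP2 (DHX58), which signal through the adaptor MAVS to the factors IRF3 and IRF7 and so to the interferon-beta gene. Secreted interferon binds the receptor IFNAR1 and IFNAR2, the kinases JAK1 and TYK2 phosphorylate STAT2, and a complex that holds STAT2 and IRF9 binds the interferon-stimulated response element (ISRE) in the promoters of many antiviral genes. Because a short hairpin RNA is itself double-stranded, a rise of these genes is a common check for a sensing response in knock-down experiments. The comparisons below give the values for sh4 and shAMB with the empty vector, which encodes no hairpin, beside them. No group carried a hairpin against another target. The presence of hairpin RNA and the silencing of RUNX1T1 thus cannot be told apart here.

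The 44 genes were chosen as interferon-stimulated or RNA-sensing, so a high share of promoters with the response element follows largely from that choice. A RefSeq promoter (GRCh38.p14) was found for 34 of the 44 members, and its 250 bases before the gene start were searched. Of these windows, 20 of 34 (58.8%) held the ISRE-like sequence GAAA and GAAA with 2 bases of any kind between them, on either strand, against 3.71% of 27305 genes in the same table. With the looser form GAAANNGA, where N is any base, the shares were 58.8% of the 34 and 20.8% of all genes. The shorter sequence TTCNNNGAA, the core bound by STAT dimers (GAS), was found in 9 of the 34 (26.5%) against 8.09% of all genes. OAS3, IFI6, IFIH1, IFIT1 and ISG15 held several ISRE-like matches, and MX1 and PARP9 also have annotated promoters without a match. The windows below show a match each, and not every match, of members that rose (OAS3, PARP12, PARP9, IFI6, ISG20, IFIH1) beside a match each of 3 usual reporters of an interferon response that did not pass the test or were hardly counted in culture (IFIT1, ISG15, MX1), and the GAS match of IRF1. Each is written 5′ to 3′ on the strand of its gene, named before the colon, and capitals mark the match (TTTC first where the match lies on the opposite strand).
OAS3, chr12:112938321-112938350, plus strand: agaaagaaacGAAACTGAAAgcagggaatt
PARP12, chr7:140062952-140062971, minus strand: ccggggccgcTTTCGGTTTC
PARP9, chr3:122564322-122564351, minus strand: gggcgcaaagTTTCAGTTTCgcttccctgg
IFI6, chr1:27672329-27672358, minus strand: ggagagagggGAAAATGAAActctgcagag
ISG20, chr15:88638937-88638966, plus strand: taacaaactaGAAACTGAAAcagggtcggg
IFIH1, chr2:162318686-162318715, minus strand: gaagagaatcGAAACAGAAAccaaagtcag
IFIT1, chr10:89392510-89392539, plus strand: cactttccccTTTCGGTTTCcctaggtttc
ISG15, chr1:1013380-1013409, plus strand: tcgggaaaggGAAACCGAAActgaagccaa
MX1, chr21:41431844-41431873, plus strand: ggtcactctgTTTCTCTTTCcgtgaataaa
IRF1, chr5:132490879-132490907, minus strand: acagcctgatTTCCCCGAAatgacggcac
A match is a description of the letters and not a measured binding site. PARP9 and DTX3L, whose proteins act together, are neighbours on opposite strands of chromosome 3, with annotated starts 239 bases apart and 5′ ends that overlap.

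RUNX1T1 itself was read first as a check of the labels, and its RNA did not fall past the threshold on induction with either hairpin or in the KO xenografts. It stood at 34.7, 33.3 and 35 CPM (counts relative to the library total, scaled by the TMM method) with DMSO and 31.2, 33.9 and 30.1 with Dox in sh4, a log2 fold change of -0.11 ± 0.05 (adjusted p = 0.117). The value after ± is the standard error of a fitted value. In shAMB the values were 40.8, 42 and 39.9 with DMSO and 41.3, 44.1 and 42.2 with Dox, with a log2 fold change of 0.06 ± 0.05 (adjusted p = 0.378). The libraries labelled KO held 24.3, 35.2, 27.3 and 33.9 CPM and the control xenografts 34.3, 43.1, 30.0 and 34.4, with a log2 fold change of -0.23 ± 0.15 (adjusted p = 0.229). In EV it was 44.1, 39.3 and 42.4 with DMSO and 36.5, 37.8 and 38.6 with Dox, groups that did not overlap, with an adjusted p of 0.672. Before induction the sh4 line already stood below EV, with DMSO in both (log2 difference of -0.29, adjusted p of 0.0144, no overlap), and the change in shAMB was above that in EV by 0.21 ± 0.08 (adjusted p = 0.0353). The groups are therefore named by their labels only, and the directions below are those of the libraries so labelled. The paper reports decreased RUNX1T1 levels in KELLY cells when either of its hairpins was induced. It also reports loss of RUNX1T1 by immunostaining in KELLY tumors after knock-down. RNA libraries hold no protein values, so a loss of the protein was not tested here. Depth was 35115915 to 54736733 counts in culture and 47346063 to 62378060 in the xenografts. All 10 markers of sympathetic neuroblastoma, such as DBH, had more than 3 counts in some library of every group. One library stood apart: control xenograft replicate 4 held 18 genes with at least 20 counts that had at most 2 in each of the 7 other xenografts, against 0 to 3 such genes in any other. It is given separately where a member rests on it. The summed level of 8 macrophage and leukocyte markers was 0.320 to 0.736 CPM in the control xenografts, 0.673 to 0.903 CPM in the KO xenografts and 0.0472 to 0.336 CPM in culture. At most 3 counts in every library were found for 5 of these 8 markers in the controls and 4 in the KO xenografts, C1QA and C1QC among them. The 6 fibroblast markers summed to 48.5 to 82.0 CPM in the control and 74.9 to 116 in the KO xenografts. In culture they summed to 70.8 to 85.3 CPM in EV with DMSO and 90.5 to 131 in sh4 with Dox. Cultured KELLY cells thus held these transcripts at a like level, and the sums are not specific to fibroblasts here. The part of such cells in the xenograft values was not tested, and in bulk RNA fewer cells of a type and less RNA per cell cannot be told apart. Whether mouse reads were removed before counting is not given in the sources used here.

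Part of the set rose when either hairpin was induced and in the KO xenografts, while doxycycline in the empty vector line gave no called change. After the filter on low counts 28 of the 44 members were tested in culture and 30 in the xenografts. In EV, 0 of 28 changed with doxycycline at an adjusted p under 0.05 by edgeR's quasi-likelihood test (0.0939% of all tested genes did), 0 also by DESeq2, and 1 had an unadjusted p under 0.05. In sh4, 14 of 28 changed, 13 higher and 1 lower, where 40.9% of all tested genes changed, 22.9% higher and 18% lower. The share called in sh4, 50% of the tested members, was near that of all genes, and the called members were mostly higher. The count of 1 lower, STAT2, rose to 5 without sh4 Dox replicate 3 (13 higher) and to 4 without sh4 DMSO replicate 3 (12 higher), and to 3 with trends in GC content and length removed. In shAMB, 22 of 28 changed, 19 higher and 3 lower, against 66.0% of all genes, with 37.6% higher and 28.4% lower. In the xenografts, 17 of 30 changed, 14 higher and 3 lower, against 41.1% of all genes, with 21.2% higher and 19.9% lower. The median log2 fold change of the tested members was 0.05 for EV, 0.32 for sh4, 0.75 for shAMB and 0.53 for the xenografts, beside medians of 0.01, -0.00, 0.10 and 0.02 over all genes. A change of at least 2-fold was called for 4 members for sh4 (5.03% of all tested genes), 12 for shAMB (17.9%) and 9 for the xenografts (12.5%). Before induction, 0 of 28 members differed between the DMSO groups of sh4 and EV (1.12% of all genes did, and 4 members had an unadjusted p under 0.05). Likewise 0 of 28 differed between those of shAMB and EV (1.52% of all genes, with 2 members at an unadjusted p under 0.05). DESeq2 also called 0 members in both.

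**Figure D1:**
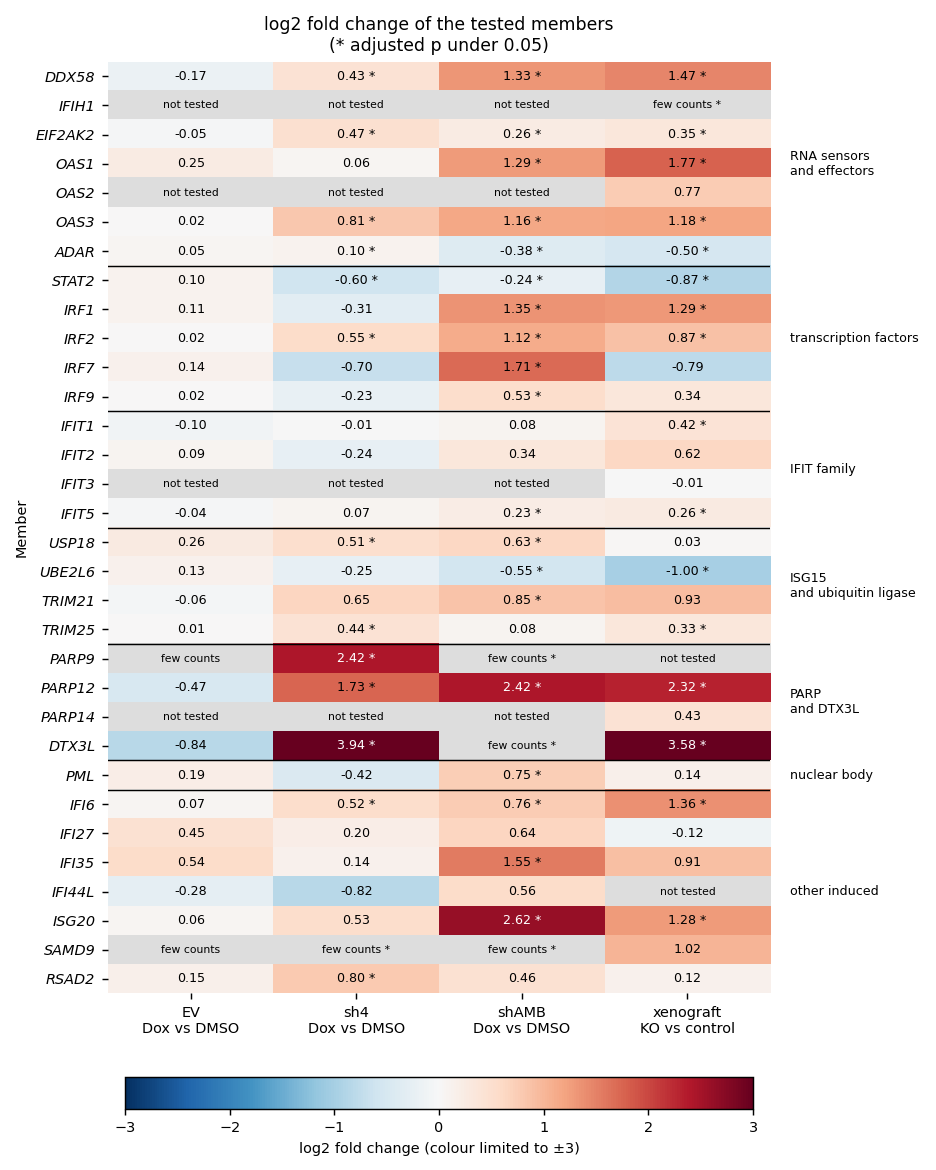
The log2 fold changes of the members that passed the filter in at least one table, in rows grouped by role, with 1 column per comparison and blue to red for lower to higher. Stars mark an adjusted p under 0.05, and grey cells were not tested or rest on at most 3 counts in all on one side (few counts). Red dominates the shAMB and xenograft columns, where DDX58 stood at 1.33 and 1.47, while no cell of the EV column has a star.

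DDX58, which encodes RIG-I, stood at 3.83, 3.88 and 3.03 CPM with DMSO and 3.23, 3.19 and 3.12 with Dox in EV. With sh4 it went from 3.06, 2.69 and 3.5 CPM to 4.63, 4.44 and 3.36, a log2 fold change of 0.43 ± 0.13 (adjusted p = 0.0131). With shAMB it went from 3.5, 3.38 and 3.45 CPM to 8.85, 8.59 and 8.58, a log2 fold change of 1.33 ± 0.13 (adjusted p = 1.98e-07). The shAMB groups did not overlap, while the lowest sh4 library with Dox lay within the range with DMSO. In the xenografts DDX58 was 5.12, 5.04, 3.78 and 4.8 CPM in the controls and 10.6, 14.5, 13.6 and 13.1 in the KO tumors, again without overlap, with a log2 fold change of 1.47 ± 0.16 (adjusted p = 6.02e-05). The sh4 rise lost its call when 1 of 4 libraries was left out (DMSO replicate 1 or 2, Dox replicate 1 or 2), with adjusted p of 0.0512 to 0.0725. Of the DDX58 exon bases, 43.2% overlap a second annotated gene of the same orientation, and its counts may hold reads of it.

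IFIH1, which encodes MDA5, was almost absent from culture, with counts of 2, 1 and 0 in EV with DMSO, 0, 0 and 0 in EV with Dox and at most 9 in any culture library. The shAMB libraries with Dox held 7, 4 and 9 counts and those with DMSO 1, 0 and 0, a ratio of the summed levels of 16 with a 95% counting interval of 2.57 to 665. The xenografts held 1, 1, 0 and 1 counts in the controls and 16, 66, 49 and 62 in the KO tumors. The xenograft groups did not overlap, the ratio of the summed levels was 57.7 with a counting interval of 19.5 to 282, and the adjusted p was 0.000123. DHX58, which encodes LGP2, a modulator of the other helicases, was too low to be tested, with 4, 4, 5 and 5 counts in the control xenografts and 19, 22, 11 and 2 in the KO xenografts, groups that overlapped. No culture library held more than 9 DHX58 counts.

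EIF2AK2, the kinase PKR that halts translation when it binds double-stranded RNA, rose with sh4 from 48.7, 52 and 54.6 to 75.9, 73.8 and 65.7 CPM, without overlap, a log2 fold change of 0.47 ± 0.07 (adjusted p = 3.93e-05). With shAMB it rose from 54.6, 56.3 and 52.5 to 68.3, 62.5 and 64.5 CPM, a log2 fold change of 0.26 ± 0.07 (adjusted p = 0.0035), while EV stood at 57.4, 53.9 and 49.7 with DMSO and 53.8, 48.8 and 53.4 with Dox. The smaller shAMB rise also left no overlap. The xenograft groups overlapped, at 96.5, 78.3, 73.6 and 85.7 CPM in the controls and 83.2, 111, 109.8 and 123 in the KO tumors. The log2 fold change of 0.35 ± 0.13 (adjusted p = 0.0458) lost its call when any of 6 of the 8 libraries was left out (control replicate 2, 3 or 4, KO replicate 2, 3 or 4), with adjusted p of 0.0871 to 0.131.

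The oligoadenylate synthetases make short oligoadenylates when they bind double-stranded RNA. OAS1 responded to shAMB, from 2.12, 2.18 and 2.51 to 5.84, 5.11 and 5.68 CPM, a log2 fold change of 1.29 ± 0.13 (adjusted p = 5.58e-07). With sh4 it was 2.58, 2.69 and 2.99 CPM and 2.93, 2.78 and 2.9 with Dox, with overlap, a log2 fold change of 0.06 ± 0.13 (adjusted p = 0.737). With EV it was 2.37, 2.35 and 2.22 against 3.43, 2.21 and 2.61. Only shAMB among the 3 lines passed the test for OAS1. The xenografts rose from 0.768, 0.971, 0.824 and 0.853 to 2.07, 3.06, 3.64 and 2.9 CPM, a log2 fold change of 1.77 ± 0.22 (adjusted p = 0.000139). OAS3 rose with both hairpins, from 15.3, 15.7 and 13.7 to 24.2, 27.1 and 27.1 CPM in sh4 and from 14.8, 12.6 and 14.8 to 29.8, 30.6 and 33.9 in shAMB. Its log2 fold changes were 0.81 ± 0.08 (adjusted p = 1.16e-06) in sh4 and 1.16 ± 0.08 (adjusted p = 9e-09) in shAMB, beside 14.7, 14.9 and 16.8 against 15.4, 15.6 and 15.9 CPM in EV. OAS3 in the xenografts went from 7.66, 9.44, 9.3 and 8.75 to 17.7, 20.9, 21.3 and 19.6 CPM, a log2 fold change of 1.18 ± 0.12 (adjusted p = 4.79e-05), so that no hairpin or KO library of OAS3 overlapped its own control. OAS2 was too low in culture to be tested and its xenograft comparison turned on 1 library, control replicate 4, with counts of 0, 1, 0 and 29 in the controls and 14, 13, 7 and 19 in the KO tumors. Its log2 fold change was 0.77 ± 0.97 (adjusted p = 0.563), and 4.69 with an adjusted p of 0.00369 without that library. OASL had at most 1 count in any library. OAS1, OAS2 and OAS3 are related genes in 1 cluster on chromosome 12, and how the counting divided reads that fit several of them is not known.

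ADAR, which edits adenosine to inosine in double-stranded RNA and so dampens sensing, fell in shAMB and the xenografts. It stood at 579.7, 546 and 563 CPM with DMSO and 435, 416 and 451 with Dox in shAMB, a log2 fold change of -0.38 ± 0.04 (adjusted p = 4.29e-07). In the xenografts it was 645, 634, 609 and 610.3 CPM in the controls and 428, 431, 455 and 449.8 in the KO tumors, a log2 fold change of -0.50 ± 0.08 (adjusted p = 0.000555). Neither pair of groups overlapped. With sh4 the values were 602, 588 and 607 CPM and 627, 664 and 634, and the small log2 fold change of 0.10 ± 0.04 (adjusted p = 0.0472) lost its call without any 1 of 4 of the 6 libraries (adjusted p up to 0.204) and turned to -0.04 once trends with GC content and length were removed. ADAR was the most highly expressed member per length, at 88.8 CPM per kilobase of gene model in EV with DMSO, followed by UBE2L6 at 19.2 and IFIT5 at 15.3, named after their values were seen.

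The factors that carry the interferon signal to the genome split in direction. STAT2, the STAT that is special to type I and type III interferon signalling, fell in every hairpin comparison. It went from 30.1, 25.4 and 27 to 17.5, 18.6 and 18.4 CPM in sh4 and from 24.4, 22.9 and 22.4 to 20.6, 18.4 and 19.9 in shAMB, without overlap in either line. The log2 fold changes were -0.60 ± 0.07 (adjusted p = 3.5e-06) in sh4 and -0.24 ± 0.07 (adjusted p = 0.00533) in shAMB. EV stood at 24.5, 23.9 and 25.9 CPM with DMSO and higher, without overlap, at 26.5, 27 and 26.5 with Dox, an uncalled log2 fold change of 0.10 ± 0.07 (adjusted p = 0.672). The xenografts fell from 30.1, 27.1, 33 and 27.9 to 19.5, 15.7, 15.2 and 14.1 CPM, a log2 fold change of -0.87 ± 0.12 (adjusted p = 0.000316). IRF9, the DNA-binding partner of STAT2, stood at 4.98, 3.48 and 4.39 against 6.52, 5.53 and 6.55 CPM in shAMB without and with Dox, a rise of 0.53 ± 0.12 (adjusted p = 0.00143) on the log2 scale. In sh4 it was 6.0, 5.51 and 5.21 against 4.42, 4.81 and 5.06 CPM. In EV it was 4.84, 4.88 and 5.3 against 5.48, 4.53 and 5.25 CPM and in the xenografts 3.59, 4.4, 4.17 and 3.93 against 5.56, 5.12, 5.19 and 4.56. None of these passed the test, although the sh4 and the xenograft groups did not overlap (log2 fold changes of -0.23, 0.02 and 0.34, adjusted p of 0.151, 0.934 and 0.0867). STAT2 and IRF9, partners in 1 complex, thus moved in opposite directions in shAMB. Of the IRF9 exon bases, 23.9% lie in another gene on the same strand and 8.05% in one on the other strand.

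IRF1, which is itself induced by interferon-gamma and binds ISRE-like sequences, rose with shAMB from 2.12, 1.82 and 2.35 to 5.13, 5.6 and 5.31 CPM and in the xenografts from 1.94, 2.39, 1.92 and 1.74 to 4.72, 4.82, 5.22 and 4.83. The log2 fold changes were 1.35 ± 0.20 (adjusted p = 2.53e-05) in shAMB and 1.29 ± 0.16 (adjusted p = 0.000157) in the xenografts, and neither pair of groups overlapped. With sh4 it was 2.96, 3.09 and 2.52 CPM with DMSO and 2.03, 2.12 and 2.8 with Dox, and with EV 1.71, 1.89 and 3.0 against 1.88, 2.94 and 2.27, overlapping in both lines. Of the IRF1 exon bases, 22.9% overlap a gene on the other strand. IRF2, a related factor that often represses the same sites, rose in all 3 comparisons, from 7.82, 7.37 and 7.22 to 11.4, 10.5 and 11.1 CPM in sh4. It went from 6.83, 7.49 and 7.6 to 15.6, 16.8 and 15.1 in shAMB and from 3.69, 4.04, 4.33 and 4.23 to 7.23, 7.53, 7.18 and 7.9 in the xenografts. Its log2 fold changes were 0.55 ± 0.08 (adjusted p = 2.63e-05) in sh4, 1.12 ± 0.08 (adjusted p = 5.2e-09) in shAMB and 0.87 ± 0.13 (adjusted p = 0.000535) in the xenografts, with EV level at 6.41, 7.2 and 7.21 against 7.23, 7.22 and 6.68 CPM. IRF2 thus stood without overlap in all 3. IRF7, the factor that amplifies interferon production, was sparse, at 0.0986, 0.156 and 0.0535 CPM without and 0.336, 0.385 and 0.30 with Dox in shAMB, a log2 fold change of 1.71 ± 0.60 (adjusted p = 0.0211). The shAMB groups did not overlap, but the call was lost without DMSO replicate 1 or 3 or without Dox replicate 2 (adjusted p of 0.0571 to 0.0791) and with GC and length trends removed (0.139). In sh4 it was 0.519, 0.354 and 0.343 against 0.165, 0.0779 and 0.54 CPM and in EV 0.114, 0.135 and 0.231 against 0.275, 0.151 and 0.0842. In the xenografts it was 0.32, 0.429, 0.537 and 0.518 against 0.488, 0.193, 0.296 and 0.0577, overlapping each time, with adjusted p of 0.269, 0.923 and 0.215.

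**Figure D2:**
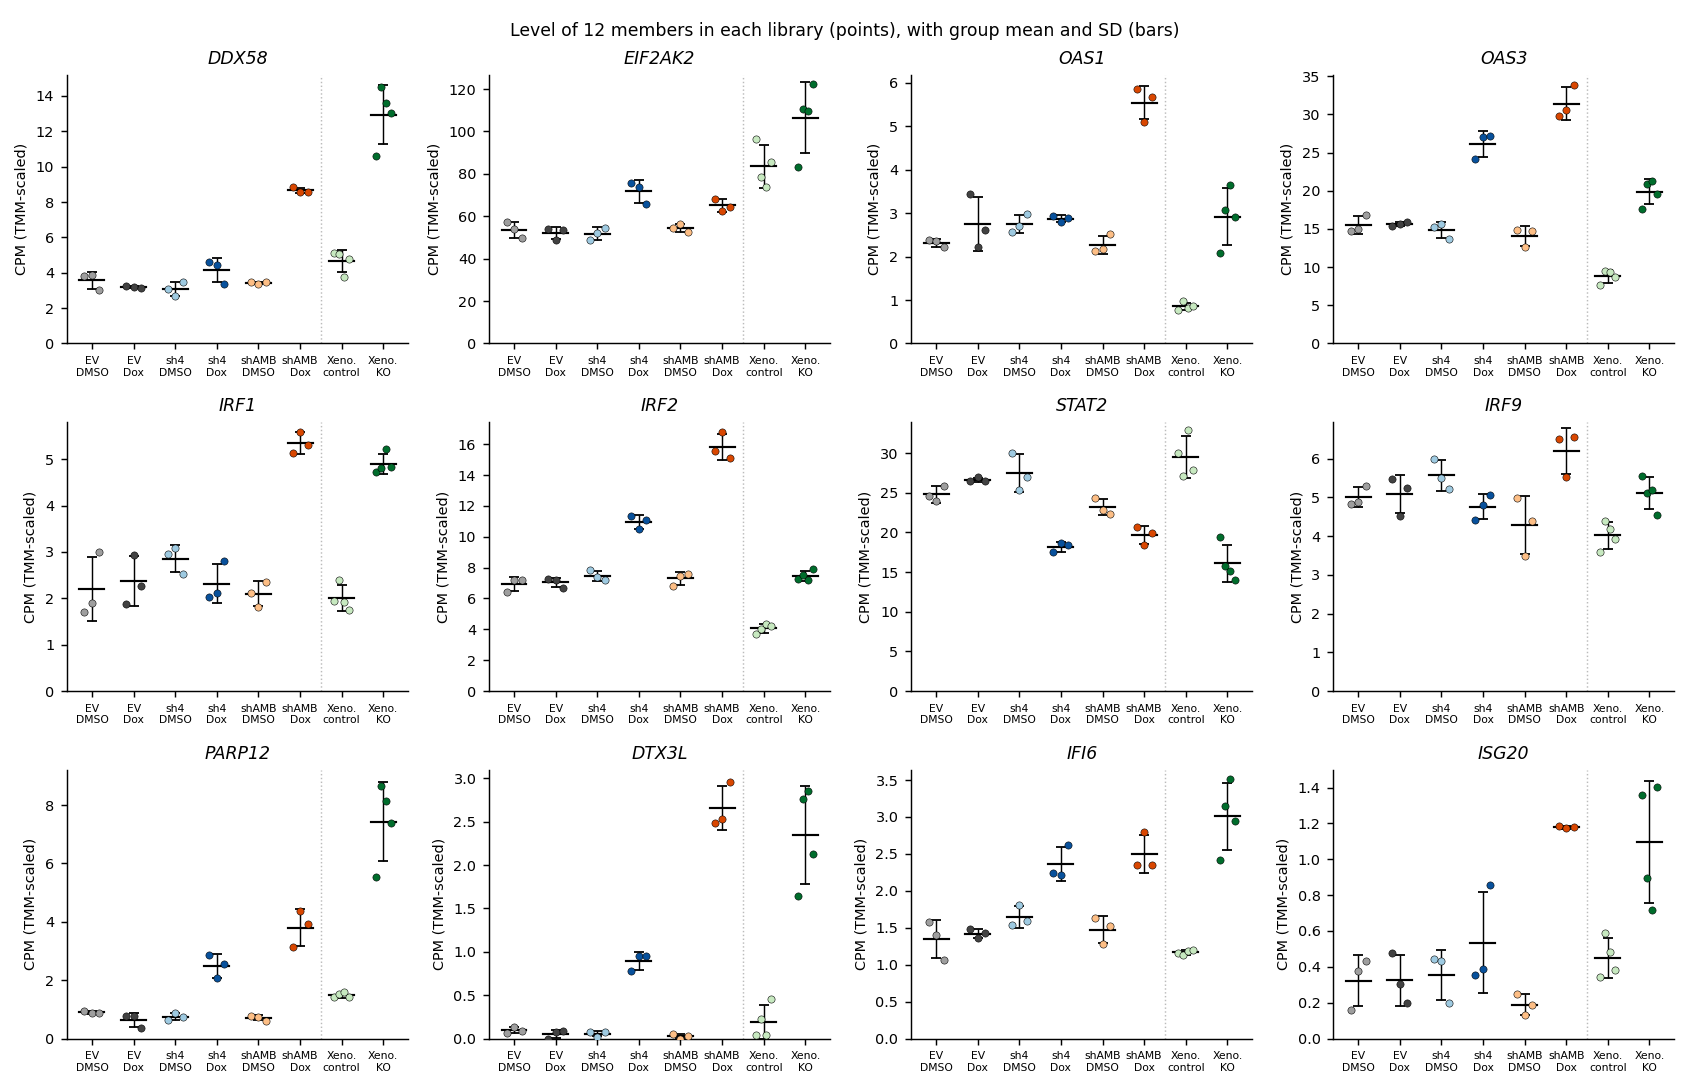
CPM of 12 members in each of the 26 libraries, with 1 panel per gene, linear axes from 0, points for libraries, and horizontal and vertical bars for the mean and SD of each group. OAS3, IRF2 and PARP12 stand above their own controls in sh4, shAMB and the KO xenografts, OAS1 and IRF1 in shAMB and the KO xenografts, and STAT2 stands below its controls in all 3.

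Of the usual reporters of an interferon response, OAS1 rose in culture with shAMB only, IFIT1 did not pass in culture, and ISG15 and MX1 were hardly counted. IFIT1, which binds foreign RNA at its 5′ end, was 5.42, 6.59 and 6.17 CPM without and 6.21, 6.09 and 5.77 with Dox in sh4. It was 6.7, 6.47 and 6.95 against 7.79, 7.08 and 6.35 in shAMB and 6.37, 6.23 and 5.16 against 5.56, 5.23 and 5.78 in EV. All 3 pairs overlapped, with log2 fold changes of -0.01 (95% confidence interval -0.23 to 0.21), 0.08 (-0.14 to 0.29) and -0.10 (-0.32 to 0.12). In the xenografts IFIT1 was 8.09, 6.37, 6.34 and 6.29 CPM in the controls and 7.55, 10.2, 8.78 and 9.65 in the KO tumors, with overlap. The IFIT1 change of 0.42 ± 0.15 (adjusted p = 0.0476) on the log2 scale was no longer called when any 1 of 6 libraries was left out (control replicate 2, 3 or 4, KO replicate 2, 3 or 4). ISG15, the ubiquitin-like protein that is conjugated to others after interferon, had 0, 0 and 0 against 0, 0 and 0 counts in EV and 0, 0 and 0 against 2, 2 and 6 in sh4. It had 0, 0 and 1 against 3, 6 and 12 in shAMB, without and with Dox. In sh4 the 95% counting interval of the ISG15 ratio, with Dox over DMSO, had a lower bound of 2.40 and no upper bound. In shAMB the ratio was 16.8 with a 95% counting interval of 2.71 to 697. In the xenografts ISG15 had 1, 0, 0 and 0 counts in the controls and 2, 2, 7 and 0 in the KO tumors. The largest ISG15 count in any library was 12, in shAMB with Dox, so that this reporter was detected with both induced hairpins, at a very low level, and in no EV library. MX1, the dynamin-like GTPase that blocks influenza viruses, had 0 counts in all 26 libraries, which allows up to 3 counts per library. MX2 had at most 2 counts, IFITM1 at most 1 and XAF1 and IFI44 at most 4. Summed without and with Dox in shAMB, OAS2 had 1 and 17 counts, IFITM3 2 and 23, and IFIT3 and IFITM2 each 1 and 9. The ratios were 13.6 (95% counting interval 2.14 to 570), 9.22 (2.28 to 80.7) and 7.22 (1.00 to 316). IFI44 and SP100 each had 3 and 2 there, and XAF1 had 0 and 0 there but 0 and 9 in sh4. In EV the sums without and with Dox were 1 and 4 for IFIT3, 3 and 4 for IFITM2 and 1 and 5 for IFI44. They were 2 and 2 for SP100 and 0 and 0 for XAF1. The IFIT3 ratio in EV, 4.01 (0.40 to 197), had an interval that overlaps the one in shAMB. Intervals on counts cover counting error only.

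Of the other IFIT genes, named after their values were seen, IFIT5 stood at 67.5 to 74.2 CPM in shAMB with DMSO and 76.1 to 85.6 with Dox, a log2 fold change of 0.23 ± 0.08 (adjusted p = 0.0194) that was not called with DESeq2 (adjusted p of 0.141) or when DMSO replicate 1 or 3 or Dox replicate 1 or 2 was left out. In the xenografts IFIT5 changed by 0.26 ± 0.10 (adjusted p = 0.0485), a call lost when any 1 of 7 of the 8 libraries was left out (adjusted p up to 0.123). IFIT3 and PARP14 showed a different contrast, between culture and mouse. IFIT3 had at most 6 counts in culture and 28, 48, 10 and 35 in the control xenografts beside 34, 39, 22 and 41 in the KO xenografts, a log2 fold change of -0.01 ± 0.46 (adjusted p = 0.986). PARP14 had at most 10 counts in culture and 29, 53, 51 and 49 against 81, 70, 48 and 72 in the xenografts, a log2 fold change of 0.43 ± 0.28 (adjusted p = 0.256). Both genes were thus higher in count in every xenograft than in any culture library, at comparable depth, whatever the diet. The tables were counted and normalized separately, and no test was made across them.

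**Figure D3:**
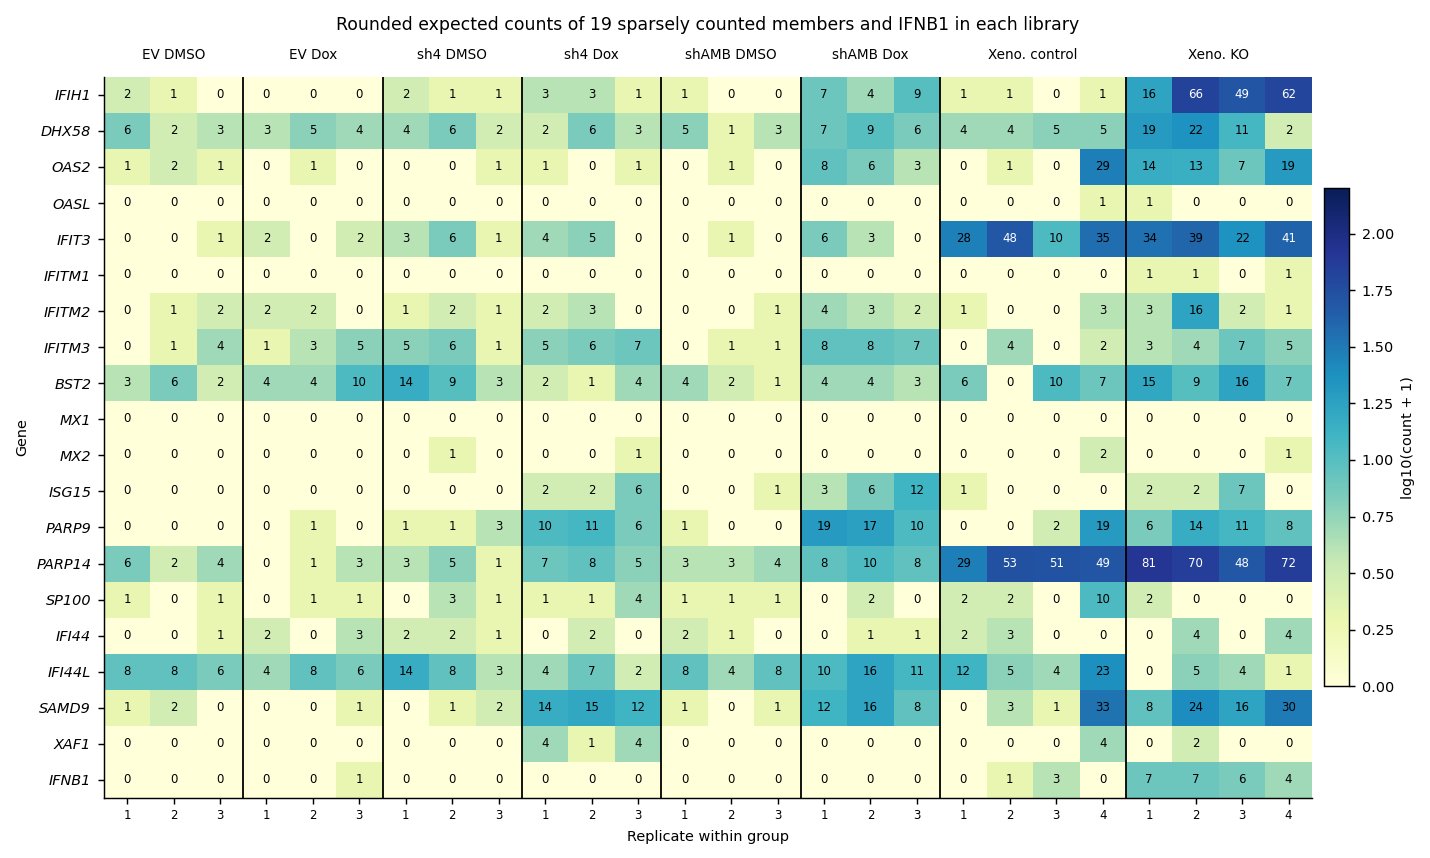
Rounded expected counts of 19 sparsely counted members and of IFNB1, with 1 column per library and shading by the log10 of the count plus 1. MX1 is 0 throughout, ISG15 appears with Dox in sh4 and shAMB, IFIH1 fills the KO xenografts (16 to 66 counts), and control xenograft replicate 4 holds most of the OAS2, PARP9 and SAMD9 counts of its group.

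PARP9, PARP12 and DTX3L, which encode factors of ADP-ribosylation and ubiquitination, rose with both hairpins in culture. DTX3L, the ubiquitin ligase that pairs with PARP9, stood at 0.0769, 0.0197 and 0.0735 CPM without and 0.779, 0.954 and 0.957 with Dox in sh4, a log2 fold change of 3.94 ± 0.42 (adjusted p = 1.76e-06). In shAMB it had 3 counts in all with DMSO and 384 with Dox, or 2.49, 2.54 and 2.95 CPM with Dox, a ratio of 103 with a counting interval of 34.9 to 500 and an adjusted p of 5.15e-09. EV held 0.0684, 0.135 and 0.0865 CPM with DMSO and 0, 0.0755 and 0.0842 with Dox. The gene was thus near 0 in every uninduced culture and in EV, and separated without overlap under both hairpins. In the xenografts DTX3L was 0.0427, 0.226, 0.0358 and 0.452 CPM in the controls, where replicate 4 was highest, and 1.64, 2.76, 2.85 and 2.13 in the KO tumors. The log2 fold change was 3.58 ± 0.57 (adjusted p = 0.000603), and 4.56 without control replicate 4. PARP9 had 1, 1 and 3 against 10, 11 and 6 counts in sh4, 1, 0 and 0 against 19, 17 and 10 in shAMB and 0, 0 and 0 against 0, 1 and 0 in EV, without and with Dox. The adjusted p was 0.00477 in sh4 and 6.49e-05 in shAMB, and neither change was called against that of EV (0.681 and 0.868). Both neighbours rose with both hairpins, PARP9 from far fewer counts and with a ratio in shAMB of 36.9 (counting interval 6.30 to 1489). In the xenografts PARP9 was too low to be tested, at 0, 0, 2 and 19 counts in the controls and 6, 14, 11 and 8 in the KO tumors. PARP12, a mono-ADP-ribosyltransferase with antiviral activity, went from 0.634, 0.865 and 0.735 to 2.86, 2.06 and 2.55 CPM in sh4, a log2 fold change of 1.73 ± 0.22 (adjusted p = 9.81e-06). In shAMB it went from 0.789, 0.728 and 0.615 to 3.13, 4.35 and 3.92 CPM, a log2 fold change of 2.42 ± 0.22 (adjusted p = 1.25e-07). In EV it was 0.958, 0.863 and 0.865 CPM without and 0.776, 0.78 and 0.365 with Dox, lower with Dox without overlap, but not past the test with -0.47 ± 0.25 (adjusted p = 0.672) on the log2 scale. The xenografts went from 1.41, 1.51, 1.59 and 1.44 to 5.54, 8.65, 8.14 and 7.38 CPM, a log2 fold change of 2.32 ± 0.18 (adjusted p = 1.07e-05), so that PARP12 rose 3.33-fold with sh4, 5.34-fold with shAMB and 4.99-fold in the KO tumors.

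SAMD9, an antiviral factor that restricts poxviruses and was named after its values were seen, also rose from near 0 with both hairpins. It had 0, 1 and 2 against 14, 15 and 12 counts without and with Dox in sh4, a ratio of 14.6 with a counting interval of 4.66 to 73.7. In shAMB the counts were 1, 0 and 1 against 12, 16 and 8, a ratio of 14.4 (3.72 to 124), and in EV 1, 2 and 0 against 0, 0 and 1. The xenografts had 0, 3, 1 and 33 counts in the controls and 8, 24, 16 and 30 in the KO tumors. The log2 fold change was 1.02 ± 0.89 (adjusted p = 0.39), and 3.54 with an adjusted p of 0.00871 without control replicate 4, which alone held 33 of the control counts.

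IFI6, a mitochondrial protein against apoptosis, rose from 1.54, 1.81 and 1.59 to 2.24, 2.22 and 2.63 CPM in sh4 and from 1.63, 1.27 and 1.52 to 2.35, 2.8 and 2.35 in shAMB. EV stood at 1.57, 1.4 and 1.07 against 1.48, 1.36 and 1.43. The log2 fold changes were 0.52 ± 0.14 (adjusted p = 0.00867) in sh4 and 0.76 ± 0.15 (adjusted p = 0.00028) in shAMB. IFI6 in the xenografts went from 1.15, 1.13, 1.18 and 1.2 to 2.42, 3.15, 3.52 and 2.94 CPM, a log2 fold change of 1.36 ± 0.19 (adjusted p = 0.000241). No pair of IFI6 groups overlapped in these 3 comparisons. Of its exon bases, 23.1% lie in another gene on the same strand. ISG20, a 3′ to 5′ exonuclease, rose from 0.246, 0.13 and 0.187 to 1.19, 1.17 and 1.18 CPM in shAMB. It rose from 0.341, 0.587, 0.484 and 0.385 to 1.36, 0.897, 0.716 and 1.4 in the xenografts. The log2 fold changes of ISG20 were 2.62 ± 0.42 (adjusted p = 5.59e-05) in shAMB and 1.28 ± 0.31 (adjusted p = 0.00681) in the xenografts. In sh4 it was 0.442, 0.433 and 0.196 without and 0.354, 0.389 and 0.859 with Dox and in EV 0.16, 0.378 and 0.432 against 0.476, 0.302 and 0.196, overlapping in both. ISG20 thus separated from its controls in shAMB and the xenografts only. IFI35 rose in shAMB from 0.468, 0.364 and 0.241 to 0.94, 1.12 and 1.11 CPM, a log2 fold change of 1.55 ± 0.35 (adjusted p = 0.00118). It was 0.654, 0.531 and 0.171 against 0.401, 0.428 and 0.712 CPM in sh4 and 0.251, 0.27 and 0.317 against 0.425, 0.503 and 0.281 in EV. In the xenografts it was 0.171, 0.361, 0.77 and 0.535 against 1.27, 0.915, 0.794 and 0.519. The adjusted p values were 0.786, 0.672 and 0.11, and all 3 pairs overlapped.

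Genes of ISG15 conjugation and its control, named after their values were seen, went both ways. UBE2L6, the enzyme that passes ISG15 on to its targets, fell from a range of 20.5 to 24.3 CPM to one of 13.8 to 16.1 in shAMB, a log2 fold change of -0.55 ± 0.11 (adjusted p = 0.00059). In the xenografts it fell from a range of 21.5 to 27.6 CPM to one of 10.1 to 13.8, a change of -0.995 on the log2 scale (adjusted p = 0.000215). USP18, which removes ISG15 and blocks the interferon receptor, rose from a range of 2.79 to 3.08 CPM to one of 3.6 to 4.52 in sh4, a change of 0.51 ± 0.12 (adjusted p = 0.0027) on the log2 scale. In shAMB it rose from a range of 2.81 to 3.08 CPM to one of 4.01 to 4.93, by 0.63 ± 0.12 (adjusted p = 0.000262). Its EV groups did not overlap either, at 3.24 to 3.52 and 3.65 to 4.57 CPM, a change that did not pass the test (0.26, adjusted p of 0.672). The enzyme that attaches ISG15 was thus lower in shAMB and the one that removes it higher, neither by as much as 2-fold. TRIM25, a ubiquitin ligase known for its part in RIG-I activation, rose from a range of 54.9 to 55.8 CPM to one of 74.2 to 75.7 in sh4, a change of 0.44 ± 0.04 (adjusted p = 3.51e-07) on the log2 scale. In shAMB it lay at 47.8 to 48.9 CPM without and 48.6 to 53.6 with Dox, a change of 0.08 ± 0.04 (adjusted p = 0.11). TRIM25 also rose in the xenografts, by 0.33 ± 0.09 (adjusted p = 0.0132), a call lost without control replicate 4 (0.30, adjusted p of 0.052) or KO replicate 3 (0.0602). PML, RSAD2 and TRIM21 each passed in 1 of the 4 comparisons of Dox with DMSO or of KO with control. PML, the scaffold of nuclear bodies, rose in shAMB by 0.75 ± 0.20 (adjusted p = 0.00465) and lost that call with GC and length trends removed. RSAD2, the antiviral enzyme viperin, rose in sh4 by 0.80 ± 0.28 (adjusted p = 0.0341) and lost its call with DESeq2 and when any 1 of 5 of the 6 sh4 libraries was left out (adjusted p up to 0.124). TRIM21 rose in shAMB by 0.85 ± 0.29 (adjusted p = 0.0173) and lost its call without DMSO replicate 2 or Dox replicate 2. IFIT2, IFI27 and IFI44L passed in none of them.

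Set against the change in EV itself, 9 of 28 members changed more or less in sh4 (8 higher, 1 lower), where 32.6% of all genes did. In shAMB 15 of 28 did (12 higher, 3 lower), where 45.5% of all genes did. The share of members in sh4, 32.1%, was thus near that of all genes. Of all 14905 genes, 2659 were higher and 2197 lower in sh4, and 3539 higher and 3237 lower in shAMB. The comparisons share the EV libraries. The 8 members higher in sh4 by this measure were DDX58, EIF2AK2, OAS3, IRF2, TRIM25, PARP12, DTX3L and SAMD9, with STAT2 lower (-0.70). For DDX58 the difference from EV was 0.60 in sh4 and 1.51 in shAMB, and for PARP12 2.21 and 2.89, with adjusted p of 0.019, 6.46e-06, 0.000112 and 3.9e-06. The count of 1 lower in sh4 minus EV rose to 5 without sh4 Dox replicate 3, to 4 without sh4 DMSO replicate 3 and to 3 without EV DMSO replicate 3. Members called against their own DMSO group but not against EV were ADAR, IFI6, USP18, RSAD2 and PARP9 in sh4 (adjusted p of 0.498, 0.115, 0.266, 0.242 and 0.681). In shAMB they were IRF7, IFIT5, USP18, TRIM21, PARP9, PML and IFI35 (adjusted p of 0.172, 0.0664, 0.0884, 0.107, 0.868, 0.128 and 0.155). For PARP9 the change in EV rests on 1 count, so its difference from EV is poorly determined.

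The hairpins, both aimed at RUNX1T1 and induced for the same 72 h, differed in their effect on 14 of 28 members. Of these, 12 had a lower sh4 effect and 2 a higher one, where 60.9% of all genes differed. The share of members, 50%, was below that of all genes, of which 4933 had a lower sh4 effect and 4145 a higher one. IRF1 differed by -1.66 ± 0.28 (adjusted p = 0.000142), OAS1 by -1.22 ± 0.19 (adjusted p = 5.31e-05) and ISG20 by -2.09 ± 0.59 (adjusted p = 0.00682) on the log2 scale, sh4 minus shAMB. ADAR and TRIM25 differed the other way, by 0.48 and 0.36. For EIF2AK2 the difference of 0.21 (95% confidence interval 0.01 to 0.42), for PARP12 that of -0.68 (-1.34 to -0.02) and for IFI6 that of -0.24 (-0.68 to 0.19) did not pass the test after adjustment, which leaves differences of the size of these intervals possible. All 5 transcription factors of the set, STAT2, IRF1, IRF2, IRF7 and IRF9, were lower in their sh4 effect than in their shAMB effect at an adjusted p under 0.05.

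**Figure D4:**
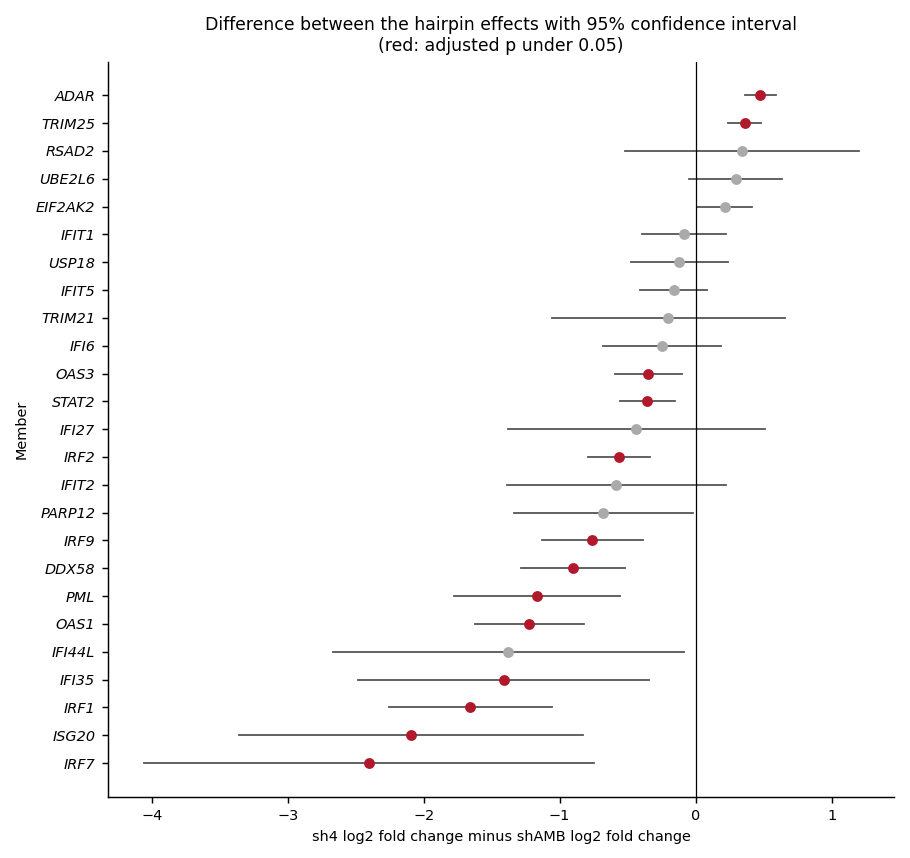
The sh4 log2 fold change minus the shAMB log2 fold change of each tested member in culture with more than 3 counts in all in both DMSO groups, with its 95% confidence interval, in red where the adjusted p was under 0.05. Most points lie left of 0, as for IRF1 at -1.66, and ADAR at 0.48 lies right of it.

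Across the tables, 7 of the 26 members tested in both rose in sh4, shAMB and the xenografts alike, DDX58, EIF2AK2, OAS3, IRF2, PARP12, DTX3L and IFI6, and 1, STAT2, fell in all 3. Of all 14670 genes tested in both tables, 5.93% rose and 5.03% fell in all 3. With shAMB and the xenografts, 11 of the 26 (42.3%) rose in both, against 17.2% of all genes. The fold changes of 24 of 26 members had the same sign in shAMB and the xenografts, where 76% of all genes did, and those of 19 of 26 in sh4 and the xenografts, where 56.9% did. These comparisons share no library, and their members were not drawn at random, so that the counts are a description. The name shAMB may refer to the Ambion-based hairpin that the methods give for the xenografts, which the labels do not say. If so, shAMB and the xenografts share a hairpin, with any effect it has on other genes, and are not separate in that respect. IRF7 was an exception, with a log2 fold change of 1.71 in shAMB and -0.79 in the xenografts, the latter not called.

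**Figure D5:**
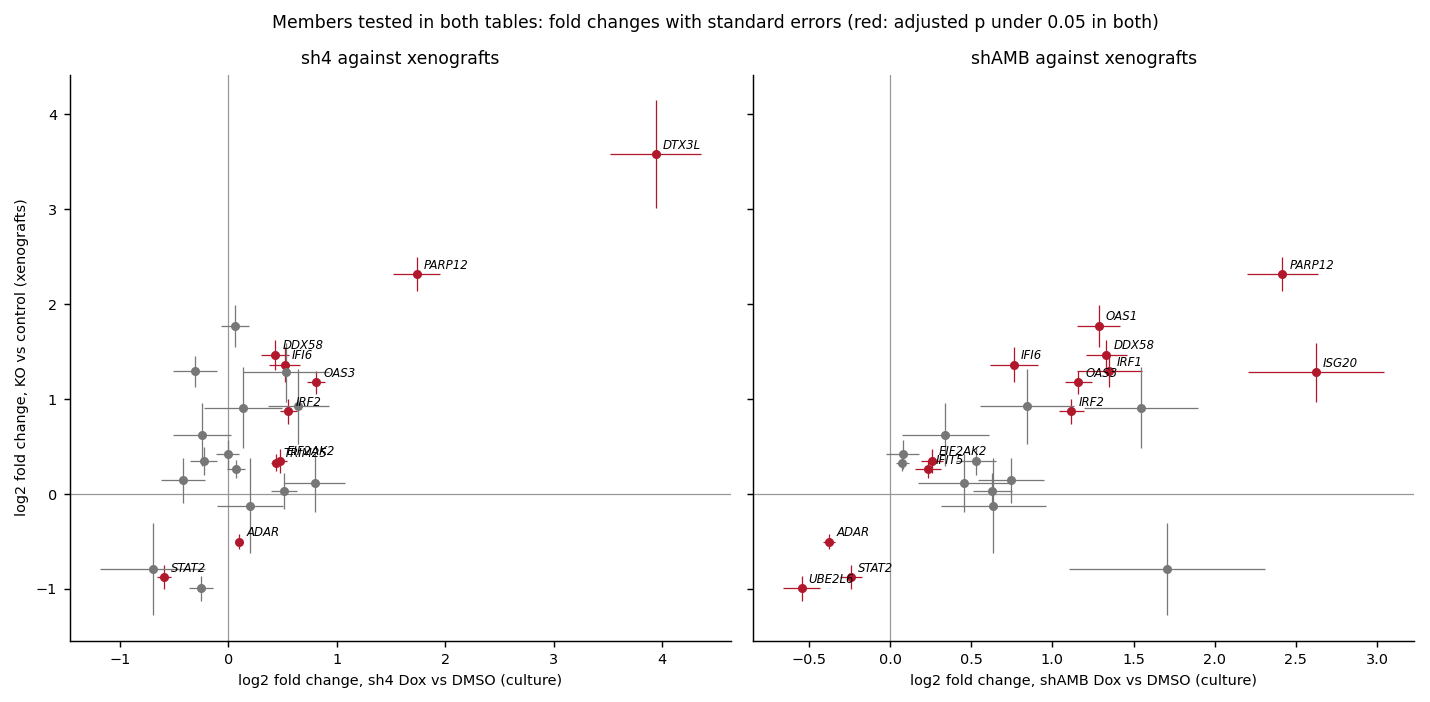
The log2 fold changes of members tested in both tables, in sh4 (left) and shAMB (right) on the x axis and in the xenografts on the y axis, with standard errors as bars, in red where both passed an adjusted p under 0.05. Members with at most 3 counts in all in a DMSO group are left out, and PARP12 (1.73 and 2.42 in culture, 2.32 in the xenografts) lies far up and right while STAT2 lies in the lower left quadrant of both panels.

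Members rose both with and without the ISRE-like letters. Of the members with a promoter in the table, 11 with an ISRE-like match and 12 without one were tested in culture. DTX3L counted as without a match, because only bases before a gene start were searched. The match shown above for PARP9, at chr3:122564332-122564341, spans the annotated DTX3L start at 122564338. In shAMB 7 of the 11 with a match rose and 0 fell, with a median log2 fold change of 0.76, and 8 of the 12 without one rose and 3 fell, with a median of 0.69. In sh4 the counts were 6 higher and 0 lower of 11 (median 0.53) and 5 higher and 1 lower of 12 (median 0.12). The xenografts gave 7 higher and 0 lower of 12 with a match (0.72), and 6 higher and 3 lower of 12 without one (0.63). All 3 members of this promoter set that fell, STAT2, ADAR and UBE2L6, held no ISRE-like match in this window, which says only that these letters are not there. ISG15, IFIT3, IFITM1, IFITM3, BST2, MX1 and IFI44 held matches and were too sparse to be tested in culture.

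The wider pathway was read from a list of 81 genes that are no members. Of these 37 were tested in each table. With sh4 16 rose and 5 fell, with shAMB 21 rose and 7 fell, and 18 rose and 4 fell in the xenografts. These are 56.8%, 75.7% and 59.5% of the list's tested genes, against 40.9%, 66.0% and 41.1% of all genes, beside 0 in EV (3 at an unadjusted p under 0.05, and 0.0939% of all genes called). Of the 21 interferon ligand genes, 14 had 0 counts in every culture library and the highest count of any was 2 in culture and 26 in the xenografts. IFNB1, the interferon-beta gene at the head of the response, had 0 counts in every culture library except 1 count in an EV library with Dox. In the xenografts it had 0, 1, 3 and 0 counts in the controls and 7, 7, 6 and 4 in the KO tumors, groups that did not overlap at a level too low to be tested. None of the 4 chemokine genes of the list was high enough to be tested in either table.

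IFNAR1 stood at 65.4 to 69.5 CPM with DMSO and 56.6 to 61.8 with Dox in shAMB, a log2 fold change of -0.21 ± 0.07 (adjusted p = 0.0156), and did not pass in sh4 or the xenografts (-0.14 and -0.15). IFNAR2 passed in no comparison, with log2 fold changes of -0.05, -0.12 and -0.16 in sh4, shAMB and the xenografts. JAK1 fell in sh4 with -0.26 ± 0.04 (adjusted p = 4.22e-05) and rose in shAMB by 0.30 ± 0.04 (adjusted p = 3.79e-06) and the xenografts by 0.52 ± 0.10 (adjusted p = 0.00191). TYK2 rose in shAMB by 0.64 ± 0.17 (adjusted p = 0.00431) and did not pass elsewhere. MAVS, the adaptor below the helicases, fell in all 3, by 0.29, 0.36 and 0.75 on the log2 scale (adjusted p of 0.000621, 4.75e-05 and 0.000747). IRF3, the factor that MAVS activates, fell in sh4 with -0.77 ± 0.26 (adjusted p = 0.0248) and did not pass in shAMB (0.40) or the xenografts (-0.43). TLR3, the endosomal sensor of double-stranded RNA, had at most 4 counts and STING1 at most 8 in any library.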

How the data were processed

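The study's RNA-seq libraries were made with the SMARTer Stranded Total RNA-Seq v2 kit, although the molecule field of the labels reads polyA RNA. Per the labels, the authors aligned reads to hg38 with STAR and quantified them with RSEM and SAMtools, whose versions and annotation for these human libraries are not given in the sources used here. The deposited gene tables hold expected counts for 18 culture and 8 xenograft libraries, with 91.8% and 91% of values whole. The deposited TPM tables were not tested here. The sources do not state how RSEM was told the strand, so reads of overlapping genes may be shared. Culture columns marked Neg and Pos were read as without and with doxycycline.

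Expected counts were rounded to whole numbers, genes were filtered with filterByExpr and scaled by TMM, and edgeR's quasi-likelihood test (edgeR 4.0.16, R 4.3.3) was fitted on all 18 culture libraries in 1 fit and on the 8 xenografts in another, two-sided, with Benjamini-Hochberg adjustment over the 14905 and 15960 genes tested and a threshold of 0.05. CPM values are on TMM-scaled library sizes, and levels between genes are compared per kilobase. All 44 members had a GC value (24535 of 26485 genes had). No 2 libraries were identical, depth was 35115915 to 62378060 counts per library, and with 3 or 4 libraries a group the spread rests on few samples. The members and lists were chosen with earlier results of these data known. Members are named with the value in every library if they passed with at least a 2-fold change in sh4, shAMB or the xenografts and reached 1 CPM in a group, or if they were among 12 sensors, factors and reporters fixed by name (DDX58, IFIH1, DHX58, EIF2AK2, STAT2, IRF9, IRF7, IRF1, IFIT1, ISG15, MX1 and OAS1). Fold changes against a group with at most 3 counts in all are given as ratios of summed counts with exact 95% intervals. The alternatives were other size factors, DESeq2 1.42.0, other filters, GC and length correction, a replicate block, narrower fits and leaving out each library. Same-numbered libraries did not steadily deviate together, which does not settle whether the numbers pair them. Numbers after ± are standard errors. The scripts were tested on simulated data. Some genes of the wider lists are not reported here.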

Additional observations from a re-analysis of the deposited data

Results flagged for a closer look

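The effects of sh4 and shAMB, each with Dox against its own DMSO group, differed by a test of the difference itself for 14 members. These were 50% of the tested members, where 60.9% of all genes differed. On the log2 scale, sh4 minus shAMB, the difference was -0.90 ± 0.18 (adjusted p = 0.000511) for DDX58, -1.22 ± 0.19 (adjusted p = 5.31e-05) for OAS1 and -0.35 ± 0.12 (adjusted p = 0.0178) for OAS3. For the factors it was -0.35 ± 0.09 (adjusted p = 0.00468) for STAT2, -1.66 ± 0.28 (adjusted p = 0.000142) for IRF1, -0.56 ± 0.11 (adjusted p = 0.000377) for IRF2, -2.40 ± 0.78 (adjusted p = 0.0147) for IRF7 and -0.76 ± 0.17 (adjusted p = 0.00162) for IRF9. It was -1.17 ± 0.29 (adjusted p = 0.00268) for PML, -1.41 ± 0.50 (adjusted p = 0.0241) for IFI35 and -2.09 ± 0.59 (adjusted p = 0.00682) for ISG20. For DTX3L the fitted difference was -2.59 ± 0.88 (adjusted p = 0.0182), and its size depends on the 3 counts of the shAMB group with DMSO. The difference was positive for ADAR with 0.48 ± 0.05 (adjusted p = 2.41e-06) and TRIM25 with 0.36 ± 0.06 (adjusted p = 6.61e-05). STAT2 fell in both lines and more in sh4, whereas IRF1, IRF7, IRF9 and PML had fold changes above 0 in shAMB and below 0 in sh4, where none of the 4 passed the test.

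Among the control xenografts, 1 library stood outside the others in 5 members by Dixon's test, which flags about 1 in 20 groups by chance. The test was run on many members in the control and the KO xenografts, so several such flags can arise by chance. In replicate 4 the level was 0.485 CPM for OAS2 (0 to 0.0226 in the other 3), 0.318 CPM for PARP9 (0 to 0.0358) and 0.552 CPM for SAMD9 (0 to 0.0677). In replicate 1 it was 8.09 CPM for IFIT1 (6.29 to 6.37 in the other 3), and 0.0213 CPM for ISG15, which is 1 count against 0. Replicate 4 is the library with 18 genes of its own, and without it 15 of 30 members changed in the xenografts, 12 higher and 3 lower.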

How the results depend on the processing

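The total of members changed in either direction stayed within 1.5 times of its reported value in each comparison under the alternatives run, except for the DMSO groups of sh4 and EV, where 1 member was called in place of 0 with a filter of 1 CPM and 1 with trends in GC content and length removed. Leaving out each library gave 11 to 18 members in sh4, 20 to 22 in shAMB, 13 to 18 in the xenografts and 0 in EV, and the 18 in sh4 came without Dox replicate 3, beside 8050 genes called in all (6091 with every library), where IRF7 in sh4 moved from -0.70 to -1.77 (adjusted p of 0.00448). Over single genes and all alternatives, 1298 called values kept direction and call, 112 lost the call and 1 reversed, and of those not called 62 became called and 3 reversed. The 4 reversals came with trends in GC content and length removed: ADAR in sh4 to -0.0422, IFIT5 in sh4 to -0.0931, IFIT5 in sh4 minus EV to -0.19, and EIF2AK2 in sh4 minus shAMB to -0.26, and the cause was not tested.

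With the replicate number as a block, 0 members changed in EV, 11 in sh4, 21 in shAMB, 13 in the xenografts, 7 in sh4 minus EV, 12 in shAMB minus EV, 13 in sh4 minus shAMB and 0 in either pair of DMSO groups. Calls over all genes dropped likewise: 14 became 2 (EV), 6091 became 4366 (sh4), 9840 became 8550 (shAMB) and 6555 became 4929 (KO against control tumors). The labels say nothing of a shared culture or day, and deviations of same-numbered libraries correlated between -0.94 and 0.46. With so few libraries a group, these correlations do not settle whether the numbers pair the libraries. Members under about 3 counts per library, among them MX1, OASL and ISG15, cannot show a small change at this depth.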

Other observations

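Of the 33 other interferon-stimulated genes of the pathway list, 19 were tested in culture and 18 in the xenografts. In shAMB 13 rose and 2 fell (78.9% changed, against 66.0% of all genes). In the xenografts 12 rose and 2 fell (77.8% against 41.1%), and in sh4 10 rose and 2 fell (63.2% against 40.9%). TRIM14 and PLSCR1 fell in shAMB (log2 fold changes of -0.29 and -0.34) and the xenografts (-0.42 and -0.49). In sh4 TRIM14 (-0.51) and LAP3 (-0.59) fell and PLSCR1 rose (0.25). The genes of this paragraph were named after their values were seen. HELZ2, a helicase with interferon-induced expression, stood at 0.32, 0.104 and 0.214 CPM with DMSO and 4.5, 5.14 and 5.82 with Dox in shAMB, and at 0.427, 0.497, 0.627 and 0.502 against 5.75, 6.33, 5.93 and 2.81 in the control and KO xenografts. Its log2 fold changes were 4.57 ± 0.41 (adjusted p = 1.15e-07) and 3.33 ± 0.29 (adjusted p = 1.88e-05), without overlap, and 0.84 ± 0.38 (adjusted p = 0.0879) in sh4. HELZ2 and NLRC5, the activator of MHC class I genes, differed between the hairpins (sh4 minus shAMB -3.73 and -1.94, adjusted p of 5.61e-05 and 0.00207). NLRC5 gave log2 fold changes of 0.92 ± 0.31 (adjusted p = 0.0256) in sh4, 2.87 ± 0.33 (adjusted p = 1.96e-06) in shAMB and 2.07 ± 0.33 (adjusted p = 0.000657) in the xenografts.

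In the adaptors and kinases of sensing, 3 of 7 tested genes rose and 3 fell in shAMB, where 37.6% of all genes rose and 28.4% fell. In sh4 1 rose and 2 fell (22.9% and 18% of all genes), and in the xenografts 2 rose and 2 fell (21.2% and 19.9%). TRAF3, a ubiquitin ligase that MAVS recruits, fell from 24.3, 21.9 and 21.3 to 8.55, 8.31 and 9.39 CPM in shAMB and from a range of 22.6 to 25.7 to a range of 11.3 to 12.8 in the xenografts, by 1.36 and 1.04 on the log2 scale (adjusted p of 1.86e-09 and 3.65e-05). It stood at 22.4 to 24.6 CPM without and 20.3 to 24.7 with Dox in sh4, overlapping groups with a log2 fold change of -0.10 ± 0.08 (adjusted p = 0.373). TICAM1, the adaptor of TLR3, rose in shAMB by 1.49 ± 0.26 (adjusted p = 0.000107) and the xenografts by 1.28 ± 0.31 (adjusted p = 0.0068).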
